A study of Mus musculus with 4 samples.

Results

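The genes described here are inhibitors that hold back signalling from RAS to the kinase ERK: the ERK phosphatases Dusp4, Dusp5 and Dusp6, the Sprouty genes Spry1, Spry2 and Spry4, the Spred genes Spred1 and Spred2, and Nf1. They were chosen by symbol, with earlier results of these data known, and 7 of the 9 had a row among the 16442 genes of the deposited table. Dusp4 and Spry4 were not analysed here. The libraries came from leukaemia stem cells of mouse bone marrow, with a C57BL/6 background in the labels and leukaemia as the disease state of both groups. The cells of interest were labelled as knockouts (KO) of Rreb1, a zinc finger transcription factor, and were set against WT cells, with 2 libraries per group. In the labels of KO replicate 2 the genotype is spelled Rreb2-KO, while its title names it KO, and it was placed with KO on that title. Ages, how the leukaemia was started, the deleted stretch of Rreb1 and which animals gave each library are not given in the sources used here. The series calls both libraries of a group biological replicates, but with no animals named the p-values measure only the spread between these libraries, which may be technical.

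RAS, when bound to GTP, activates the kinases RAF, MEK and ERK in turn, and active ERK induces immediate early transcripts as well as several of its own inhibitors. Dual-specificity phosphatases remove the activating phosphates from ERK, Sprouty and Spred proteins act upstream at the level of RAS and RAF, and neurofibromin, the product of Nf1, makes RAS hydrolyse its GTP. Because ERK activity drives their transcription, the levels of Dusp6 and of the Sprouty transcripts are widely used as readouts of the pathway, and loss of NF1 is a known lesion of myeloid leukaemias.

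Each library gave ribosome footprints, the stretches of mRNA that ribosomes shield from nuclease, and a matched input RNA level. Both are given in RPKM, reads scaled for length and for library depth, and translational efficiency (TE) divides the footprint RPKM by the RNA RPKM, each with 1 added. The footprint libraries were shallow, with 364087 and 274183 assigned reads in KO replicates 1 and 2, against 878068 and 656249 in WT replicates 1 and 2. A single footprint in a coding sequence of 1 kilobase thus amounted to 2.75 and 3.65 RPKM in the KO libraries, against 1.14 and 1.52 RPKM in the WT libraries. The input libraries were far deeper, at an estimated 17040000 to 19120000 reads. Over 6387 genes, which are not independent replicates, Pearson's r of log2 footprints was 0.782 for the KO pair and 0.94 for the WT pair. For RNA over 12194 genes it was 0.989 for the KO pair and 0.992 for the WT pair. Rreb1 itself had more RNA in the KO-labelled libraries, 6.10 and 6.93 RPKM, against 3.33 and 3.25 RPKM in WT. Its footprints were 12.9 and 8.19 RPKM in KO, against 14.1 and 12.8 RPKM in WT, and limma gave an adjusted p of 0.00232 for the higher RNA and of 0.672 for the footprints. The TE of Rreb1 was lower in KO, at 1.95 and 1.16, against 3.48 and 3.25 in WT. Its log2 difference was -1.16 ± 0.39 and did not pass (SE, limma adjusted p = 0.343). No readout thus passed as a loss of the targeted gene. Whether the counted exons include the deleted stretch is unknown, so each direction refers to the libraries as labelled.

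The labelled cell type was compared with stem and progenitor markers. All 11 such markers with a row were detected in every library. RNA of 7 of them rose in KO and of 2, Mpo and Hoxa10, fell (limma adjusted p under 0.05), against 32.2% and 21.1% of all tested genes. Summed RNA of the 11 was lower in KO, at 393 and 363 RPKM, against 486 and 503 RPKM in WT. Mpo, the myeloperoxidase gene, was the largest part of that sum, with 192.4 and 166.1 RPKM in KO, against 370.9 and 386.8 RPKM in WT. The direction of the sum rests on Mpo, since the other markers together had more RNA in KO. Cd34, a surface marker of progenitors, had 50.5 and 49.8 RPKM of RNA in KO, against 4.41 and 4.71 RPKM in WT, and Kit, the receptor of stem cell factor, had 7.36 and 7.15 RPKM in KO, against 1.97 and 2.32 RPKM in WT. Hoxa9, a homeobox gene of myeloid progenitors, lay between 31.8 and 35.8 RPKM in KO and between 32.6 and 34.6 RPKM in WT.

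Markers of other blood lineages moved between the same libraries. Here lower or higher means both KO libraries below or above both WT libraries. That held for 28.2% (lower) and 44.3% (higher) of all 16442 rows. Summed RNA of 12 monocyte and macrophage markers was 1872 and 1821 RPKM in KO, against 6265 and 6259 RPKM in WT (8 lower, 3 higher). Summed RNA of 12 neutrophil markers was 11473 and 11143 RPKM in KO, against 18108 and 17239 RPKM in WT (7 lower, 3 higher). Markers of mast cells, basophils and eosinophils ran the other way, with 516.8 and 499.4 RPKM in KO, against 35.9 and 34.1 RPKM in WT, and 7 of 8 higher. So did markers of T and NK cells, with 437.0 and 366.4 RPKM in KO, against 18.6 and 18.9 RPKM in WT (7 of 9 higher, none lower). Erythroid markers had 313.0 and 378.0 RPKM in KO, against 69.4 and 60.2 RPKM in WT (6 of 10 higher, 1 lower). Summed RNA was 73.3 and 80.3 RPKM in KO, against 12.1 and 12.4 RPKM in WT, for 5 stromal and endothelial markers (4 higher, none lower), 20.8 and 22.2 RPKM in KO, against 1.15 and 1.64 RPKM in WT, for 4 megakaryocyte markers (2 higher, none lower), and 107.1 and 94.6 RPKM in KO, against 120.5 and 120.5 RPKM in WT, for 6 B cell markers (3 higher, 2 lower). No marker with a row in these lists was at 0 in all 4 libraries. In some lists few genes reached 1 RPKM of RNA in at least 2 libraries. These were 4 of 9 for T and NK cells, 4 of 10 for erythroid cells and 1 of 4 for megakaryocytes. Of the 4 T and NK genes, Nkg7 had a log2 difference of 4.63, while Il2rb, Trbc2 and Lck had 0.44 to 1.51. A sum can thus rest on few genes. In such bulk samples fewer cells of a type and less RNA per cell cannot be told apart, and the part of these lineage differences in the inhibitors' values was not tested.

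All 7 inhibitors with a row had less RNA in both KO libraries than in either WT library. The same held for 28.2% of all 16442 rows, and both KO libraries were above both WT libraries in 44.3%. Of the 5 inhibitors with enough RNA to be tested, Dusp6, Dusp5, Spred2, Spry2 and Spred1 all fell in the KO libraries (limma adjusted p under 0.05), where 21.1% of all tested genes fell, 32.2% rose and 53.3% did either. The falls of Dusp6, Dusp5 and Spred2 were also at least 1.5-fold on the fitted scale, against 10.8% of all tested genes. This count rests on the 1 added before the logarithm, since with 0.5 added, a setting chosen after the data were seen, all 5 passed at that fold, against 11.7% of all tested genes. Dusp5 and Spred1 reached the minimum for testing, 1 RPKM in at least 2 libraries, only through the WT libraries. The median log2 difference in RNA of the tested members was -0.69, against 0.10 over all 12194 tested genes.

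Dusp6 and Dusp5, the phosphatases that act mainly on ERK, had the largest falls among the tested members. The 250 bases upstream of the annotated start of each are printed (RefSeq, GRCm38.p6, plus strand, 5′ to 3′). All 7 inhibitors with a row had lower RNA in KO, so a shared direction does not set this pair apart. The window of Dusp5 is chr19:53528895-53529144 and that of Dusp6 is chr10:99262981-99263230. Capitals in the Dusp5 window mark 2 adjacent CArG boxes, the sequence class that serum response factor recognises, and the Dusp6 window, which held none of the motifs searched, is in lower case throughout.
Dusp5: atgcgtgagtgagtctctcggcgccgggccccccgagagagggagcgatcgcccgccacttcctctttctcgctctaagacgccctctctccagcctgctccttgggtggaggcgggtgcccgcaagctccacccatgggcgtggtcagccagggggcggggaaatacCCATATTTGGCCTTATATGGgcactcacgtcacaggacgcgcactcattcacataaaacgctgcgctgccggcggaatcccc
Dusp6: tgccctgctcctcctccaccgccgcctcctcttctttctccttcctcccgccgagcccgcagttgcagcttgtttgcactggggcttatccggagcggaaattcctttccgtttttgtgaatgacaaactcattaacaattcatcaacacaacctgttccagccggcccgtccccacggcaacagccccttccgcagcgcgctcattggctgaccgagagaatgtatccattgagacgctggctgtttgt
The CArG box was added to the search after the Dusp5 sequence had been read. It occurred on either strand in 1.47% of 32851 mouse windows of 250 bases and in 1 of the 7 members' windows, that of Dusp5. The other motifs searched on both strands were CCGGAA, a core of ETS factor sites, in 12.0% of windows, TGANTCA, an AP-1 site, in 6.75%, and CCACCCC, a piece of the RREB1 consensus, in 13.5%. Among the members, the Nf1 window held 1 CCGGAA and 2 CCACCCC, and these letters were in no other member's window. RefSeq's window for Nf1 precedes a start within the gene's annotated span, whereas those of the other 6 lie just outside it. A match describes the sequence only.

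Dusp6, which binds ERK in the cytoplasm, was the most abundant of the 7 members' transcripts in WT cells and had little RNA in the KO libraries. With 122 and 85 input reads, KO replicates 1 and 2 had 2.11 and 1.59 RPKM of Dusp6 RNA, against 32.5 and 35.2 RPKM in WT replicates 1 and 2, from 1944 and 2000 reads. Both KO libraries lay far below both WT libraries, and replicates of a group were close. The mean was 1.85 ± 0.369 RPKM in KO and 33.8 ± 1.91 RPKM in WT (SD, n = 2 each), 18.2-fold lower in KO, and pooled reads gave a 95% exact interval for that ratio of 15.8 to 20.9, which covers counting error only. The log2 difference was -3.61 ± 0.11 (SE, limma adjusted p = 5.47e-05). Counting Dusp6 itself, 13 of the 12194 tested genes had a difference as low or lower, 0.107% of them.

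Dusp5, a nuclear phosphatase that also anchors ERK there, was a low transcript in both groups. Its RNA was 0.439 and 0.332 RPKM in KO, from 20 and 14 reads, against 2.41 and 1.85 RPKM in WT, from 114 and 83 reads. The groups did not overlap, and the mean was 5.52-fold lower in KO, at 0.386 ± 0.0755 RPKM against 2.13 ± 0.398 RPKM in WT (SD, n = 2 each). The log2 difference was -1.17 ± 0.14 (SE, limma adjusted p = 0.00231), a scale on which the added 1 shrinks the change of so low a gene.

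The Sprouty genes encode adaptors that block receptor signalling on its way to RAS and RAF. Spry2 had 7.47 and 7.45 RPKM of RNA in KO, against 13.1 and 10.4 RPKM in WT, from 287 and 265 input reads in KO and 522 and 393 in WT. The KO libraries nearly coincided and lay below both WT libraries, and the fitted log2 difference was -0.58 ± 0.12 (SE, limma adjusted p = 0.0122). The means were 7.46 ± 0.009 RPKM in KO and 11.7 ± 1.92 RPKM in WT (SD, n = 2 each), 1.57-fold lower in KO. Without KO replicate 1, KO replicate 2 or WT replicate 1, the limma adjusted p of Spry2 became 0.0735, 0.0783 and 0.0566.

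Spry1 was the scarcest of the 7 transcripts and stayed under the minimum for testing. It had 5 and 0 input reads in KO replicates 1 and 2, against 26 and 25 in WT replicates 1 and 2, or 0.0934 and 0 RPKM in KO, against 0.468 and 0.474 RPKM in WT. The WT libraries were the higher ones without overlap. The pooled ratio of WT over KO was 9.70, with a 95% exact counting interval of 3.90 to 31.1.

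Both Spred genes, whose products recruit neurofibromin to RAS at the membrane for GTP hydrolysis, fell in RNA. Spred2 had 0.976 and 1.26 RPKM in KO, against 2.34 and 2.48 RPKM in WT, and its log2 difference was -0.69 ± 0.12 (SE, limma adjusted p = 0.00739). Spred1 had 0.416 and 0.493 RPKM in KO, against 1.30 and 1.01 RPKM in WT, and its log2 difference was -0.56 ± 0.13 (SE, limma adjusted p = 0.0192). In both genes each KO library was below each WT library, 2.16-fold by the means for Spred2 and 2.53-fold for Spred1. The call of Spred2 was lost without WT replicate 2 (limma adjusted p = 0.0545), and that of Spred1 without KO replicate 1 (limma adjusted p = 0.0597) or WT replicate 1 (limma adjusted p = 0.0956).

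Nf1 moved least. Its RNA was 0.514 and 0.518 RPKM in KO, from 150 and 140 reads, against 0.577 and 0.632 RPKM in WT, from 175 and 182 reads. The groups did not overlap, but the gap was small, and Nf1 was below the minimum for testing. In a fit with no minimum its log2 difference was -0.08 ± 0.06 (SE, limma adjusted p = 0.369), while Spry1 had -0.49 ± 0.07 (SE, limma adjusted p = 0.016).

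**Figure D1:**
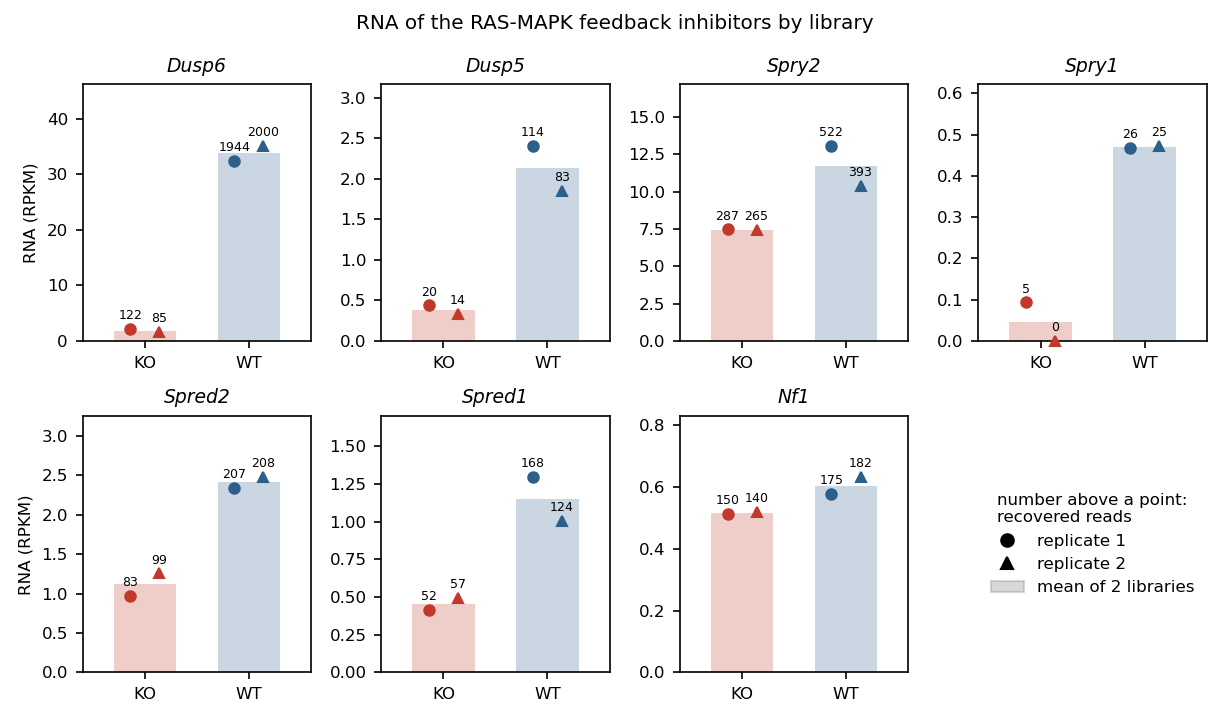
RNA level (RPKM, linear axes from 0) of the 7 inhibitors in the KO and WT libraries. Points are libraries, bars are means of 2 libraries and the numbers are recovered input reads. Every KO point lies below both WT points, with the widest gap for Dusp6 (1.85 against 33.8 RPKM on average) and the narrowest for Nf1 (0.516 against 0.605 RPKM).

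The order of the transcripts differed between the groups. In KO cells Spry2 was highest, followed by Dusp6, Spred2 and Nf1, then Spred1 and Dusp5, which overlapped, and Spry1. In WT cells Dusp6 led, followed by Spry2, then Spred2 and Dusp5, which overlapped, and then Spred1, Nf1 and Spry1. Dusp6 RNA thus stood below Spry2 RNA in both KO libraries and above it in both WT libraries.

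Ribosome footprints did not follow this uniform pattern. Of the 7 inhibitors, both KO libraries lay below both WT libraries in 1 (Dusp6) and above them in 2 (Dusp5 and Nf1), and the libraries overlapped or tied in 4. For Dusp5, KO replicate 2 and WT replicate 1 had 1 read each, so their order reflects library depth alone. Among the 6387 genes tested in footprints, 32.1% lay below and 20.4% above. Dusp6, Spry2 and Nf1 reached the minimum for testing, a depth-scaled read number (CPM) of 20 or more in 2 libraries. None of these 3 passed in limma, and 0 had an unadjusted p under 0.05, where 1.03% of all tested genes passed after adjustment, 0.579% higher and 0.454% lower in KO, and 18.2% were under 0.05 without it.

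Dusp6 footprints split the KO libraries. There were 47 footprint reads in KO replicate 1 and 1 in KO replicate 2, against 216 and 182 in WT replicates 1 and 2, which gives 112.9 and 3.19 RPKM in KO, against 215.2 and 242.6 RPKM in WT. Both KO values were below both WT values, yet the KO libraries differed 35.4-fold between themselves while their RNA was 2.11 and 1.59 RPKM. The log2 difference was -3.39 ± 1.57 (SE, limma adjusted p = 0.347). Without KO replicate 1 it was -5.78 (limma adjusted p = 0.0113), from a KO library with 1 read, and without KO replicate 2 it was -1.01 (limma adjusted p = 0.0561). With a single KO library the spread comes from the WT pair alone and KO is assumed to vary like it, so neither p is a replicated test. Of the 6387 tested genes, 43 had KO libraries at least as far apart in footprints, 0.673% of them.

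Dusp5 and Spred2 showed the same split. Dusp5 had 27 footprint reads in KO replicate 1 and 1 in KO replicate 2, against 1 and 0 in WT replicates 1 and 2, or 64.4 and 3.17 RPKM in KO, against 0.989 and 0 RPKM in WT. Spred2 had 29 and 0 footprint reads in KO replicates 1 and 2, against 3 and 6 in WT, or 55.9 and 0 RPKM in KO, against 2.40 and 6.42 RPKM in WT. In both genes KO replicate 1 alone was high in footprints, while their RNA was lower in both KO libraries than in either WT library. Neither gene reached the minimum for testing, and with no minimum the log2 difference in footprints was 3.55 ± 1.78 for Dusp5 (SE, limma adjusted p = 0.745) and 0.59 ± 2.46 for Spred2 (SE, limma adjusted p = 1).

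A count over the whole table sets these values in context. With a threshold chosen after the values were seen, 94 genes had at least 20 footprint reads in KO replicate 1 and at most 1 in KO replicate 2, which is 2.74% of the 3429 genes with at least 20 reads in KO replicate 1. Dusp5, Dusp6 and Spred2 were 3 of the 94, out of 4 inhibitors with at least 20 reads there. The opposite split was shown by 10 genes, none of them an inhibitor. The rule uses raw reads, and KO replicate 1 was the deeper library, with 364087 against 274183 assigned reads. The 94 and the 10 are thus not on an equal footing. The median absolute log2 difference between replicates over the tested genes was 0.555 in KO and 0.274 in WT. The part of library differences in these footprint values was not tested.

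Spry2 and Spred1 had few footprints and overlapping groups. Spry2 had 11.6 and 30.9 RPKM in KO, against 12.1 and 24.2 RPKM in WT, from 4 and 8 reads in KO and 10 and 15 in WT, and the log2 difference was 0.15 ± 0.62 (SE, limma adjusted p = 0.912). Spred1 had 1.92 and 12.7 RPKM in KO, against 7.94 and 7.44 RPKM in WT, from 1 and 5 reads in KO and 10 and 7 in WT. At these counts the pooled footprint ratio of KO over WT had a 95% exact counting interval of 0.528 to 2.38 for Spry2 and of 0.274 to 2.26 for Spred1, so the falls of their RNA were not detectable in footprints at this depth.

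Nf1 had 10.6 and 5.54 RPKM of footprints in KO, against 4.79 and 4.63 RPKM in WT, from 33 and 13 reads in KO and 36 and 26 in WT. Both KO libraries were above both WT libraries, with a mean of 8.07 ± 3.57 RPKM in KO and 4.71 ± 0.114 RPKM in WT (SD, n = 2 each). Its log2 difference was 0.61 ± 0.45 and did not pass (SE, limma adjusted p = 0.527), and it was 0.20 without KO replicate 1 and 1.02 without KO replicate 2. Spry1 had 0 footprint reads in all 4 libraries, which allows a CPM of up to 8.24 and 10.9 in KO replicates 1 and 2, and of up to 3.42 and 4.57 in WT replicates 1 and 2, counting 3 reads as the limit.

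**Figure D2:**
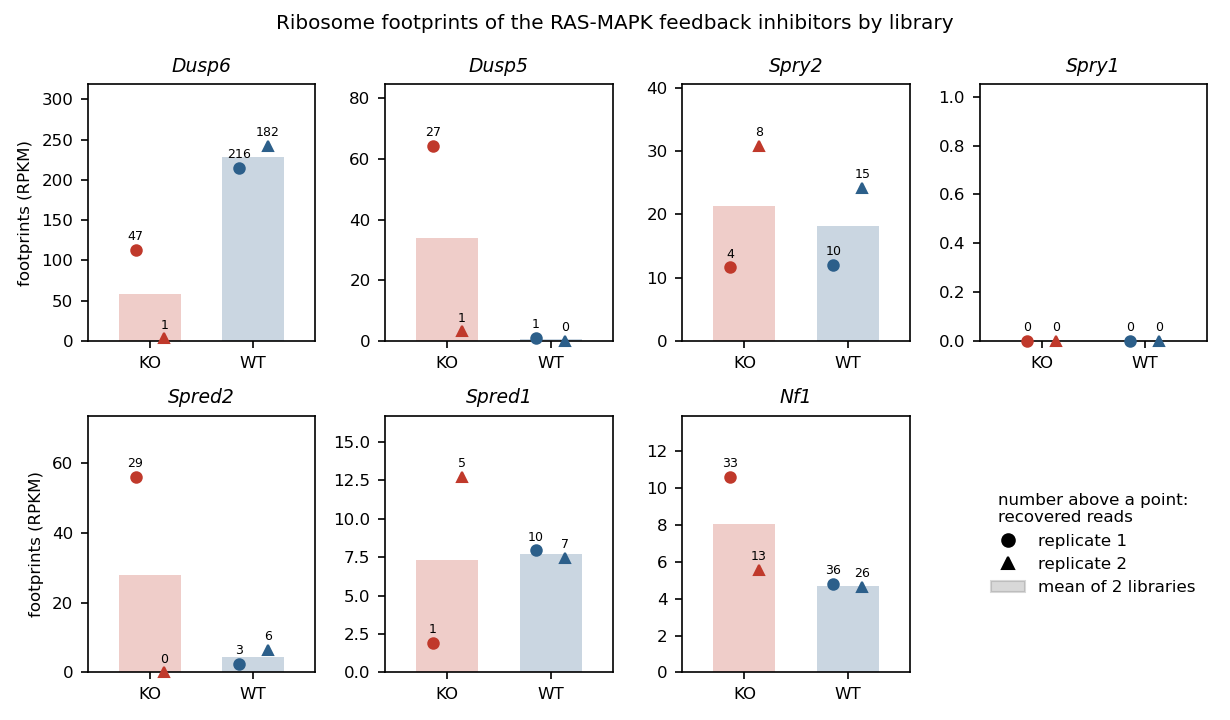
Ribosome footprints (RPKM, linear axes from 0) of the same 7 genes and libraries, with recovered footprint reads as numbers and bars for means of 2 libraries. KO replicate 1 stands far above KO replicate 2 for Dusp6 (47 and 1 reads), Dusp5 (27 and 1) and Spred2 (29 and 0), and the WT libraries are closer to each other.

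Translational efficiency inherited the split of the footprints. For Dusp6 it was 36.6 and 1.62 in KO replicates 1 and 2, against 6.46 and 6.74 in WT replicates 1 and 2, so the KO libraries lay on either side of the WT libraries. The log2 difference was 0.22 ± 1.46 (SE, limma adjusted p = 0.961). It was -2.03 without KO replicate 1 (limma adjusted p = 0.0492) and 2.47 without KO replicate 2 (limma adjusted p = 0.0238), each with a single KO library and a spread from the WT pair alone. As the KO libraries had opposite signs relative to WT, no direction is given. The TE of Spry2 was 1.49 and 3.77 in KO, against 0.927 and 2.22 in WT, and its log2 difference was 0.73 ± 0.66 (SE, limma adjusted p = 0.666). Without 1 library this difference of Spry2 ranged from 0.06, without KO replicate 2, and 0.10, without WT replicate 1, to 1.36, without WT replicate 2, and 1.40, without KO replicate 1. The TE of Nf1 was 7.66 and 4.31 in KO, against 3.67 and 3.45 in WT, and its log2 difference was 0.69 ± 0.40 (SE, limma adjusted p = 0.503), with 0.28 without KO replicate 1 and 1.11 without KO replicate 2. Of the 3 inhibitors tested, 0 passed and 0 had an unadjusted p under 0.05. Over all 6387 genes 0% passed in limma, and 13% were under 0.05 without adjustment.

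The remaining inhibitors were under the footprint minimum, and their TE is given without a test. Dusp5 had a TE of 45.4 and 3.13 in KO, against 0.583 and 0.351 in WT, from 27 and 1 footprint reads in KO and 1 and 0 in WT. Spred2 had 28.8 and 0.443 in KO, against 1.02 and 2.13 in WT, and Spred1 had 2.06 and 9.19 in KO, against 3.90 and 4.21 in WT. The groups were apart for Dusp5, though only KO replicate 1 had more than 1 footprint read of it, and overlapped for Spred2 and Spred1. In the authors' deposited table, the p-value per gene, in a column headed as adjusted, was 0.274 for Dusp6 and 0.189 for Dusp5, and the lowest among the 7 was 0.0115 for Spry1, a gene with no footprints, whose TE is set by its RNA alone.

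**Figure D3:**
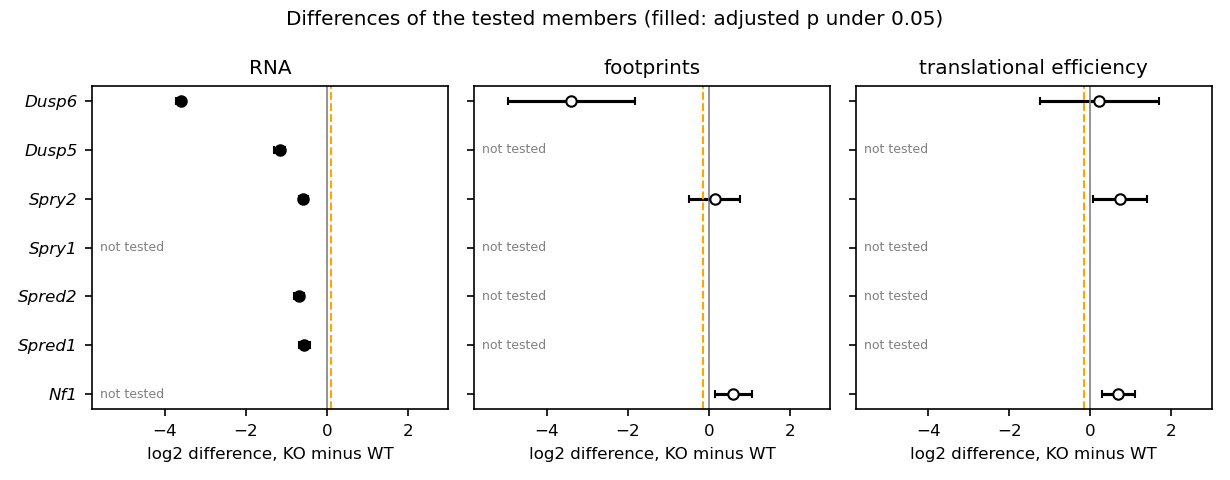
Log2 difference, KO minus WT, of the tested inhibitors in RNA, footprints and translational efficiency. Bars are standard errors, filled points passed an adjusted p of 0.05 in limma, and the dashed line is the median of all tested genes. In RNA 5 inhibitors lie left of 0 with short bars. In footprints and TE the 3 tested inhibitors have wide bars and open points.

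The rest of the pathway was read from lists of its parts. As over all tested genes 32.2% rose and 21.1% fell, the counts of each list are read against these shares. Among 20 tested genes of other RAS and MAP kinase inhibitors, RNA of 5 (25%) rose, 8 (40%) fell and 7 did not pass (median log2 difference -0.03). Dusp1, a nuclear MAP kinase phosphatase, had 40.2 and 26.8 RPKM in KO, against 164.4 and 161.9 RPKM in WT. Its RNA fell by 2.28 ± 0.19 on the log2 scale (SE, limma adjusted p = 0.000697), and its footprints, 57 and 3 reads in KO against 151 and 110 in WT, did not pass (limma adjusted p = 0.468). Rasa2, a GTPase-activating protein for RAS, had 1.08 and 1.49 RPKM in KO, against 8.39 and 7.95 RPKM in WT, and Errfi1, an inhibitor of the EGF receptor, had 0.621 and 0.754 RPKM in KO, against 3.05 and 4.46 RPKM in WT. Both fell (limma adjusted p = 0.000305 for Rasa2 and 0.00205 for Errfi1), and in each the KO libraries were below both WT libraries. Errfi1 and Dusp9, another gene of this list that fell, reached the minimum for testing only through the WT libraries. Among those that rose was Rasa1, another GTPase-activating gene, with a log2 difference of 0.68 (limma adjusted p = 0.0192). Not all inhibitors of RAS thus moved as the Dusp, Sprouty and Spred genes did.

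A list of transcripts that ERK induces also held 6 tested substrates and effectors of ERK (Rps6ka1, Rps6ka3, Mknk1, Elk1, Elk3 and Elk4). Of its 24 tested genes, 15 had lower RNA in KO and 1 had higher RNA past the threshold, 8 did not reach it, and the median log2 difference was -0.60. Of the 6 substrates and effectors, which were set apart after the values were seen, 2 were lower and 1, Rps6ka3, was higher. Rps6ka3, the only gene of the list that rose, reached the minimum for testing only through the KO libraries. The other 18 thus had 13 lower and, by that choice, none higher. Of those 13, 6 reached the minimum for testing only through the WT libraries, Etv5 and Ccnd1 among them. Egr1, an immediate early zinc finger factor, had 8.22 and 6.52 RPKM in KO, against 71.5 and 81.5 RPKM in WT (log2 difference -3.22 ± 0.12, SE, limma adjusted p = 8.99e-05). Etv5, an ETS factor, had 0.0397 and 0.1001 RPKM in KO, against 3.84 and 4.51 RPKM in WT (log2 difference -2.27 ± 0.13, SE, limma adjusted p = 0.000229). Fos and Ccnd1, the cyclin D1 gene, had log2 differences in RNA of -3.29 and -2.90, so that the difference of Dusp6 was of the same order as theirs. Of 14 genes of this list tested in footprints, 1 passed, Ccnd1 (limma adjusted p = 0.0204). It had 0 footprint reads in both KO libraries, against 38 and 33 in WT. Fos footprints, 9 and 2 reads in KO against 211 and 139 in WT, did not pass (limma adjusted p = 0.0701). Myc had a log2 difference of 0.08 and did not pass (limma adjusted p = 0.543).

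Of 24 tested core genes from adaptors to ERK, RNA of 6 (25%) rose, 9 (37.5%) fell and 9 did not pass (median log2 difference -0.14). Mapk3, which encodes ERK1, had 45.5 and 47.9 RPKM in KO, against 21.3 and 19.98 RPKM in WT, and rose by 1.14 ± 0.07 on the log2 scale (SE, limma adjusted p = 0.000266). Map2k1, which encodes MEK1, fell by 0.93 (limma adjusted p = 0.000378) and the adaptor gene Gab1 by 1.63 (limma adjusted p = 0.000489). Gab1 had 0.235 and 0.358 RPKM in KO, against 3.07 and 2.96 RPKM in WT. Gab1 and Rras, which also fell, reached the minimum only through the WT libraries. Of the 6 core genes that rose, 1 reached it only through the KO libraries. Nras, a RAS gene, fell by 0.35 (limma adjusted p = 0.0121), a call lost without WT replicate 1 (limma adjusted p = 0.0781) or WT replicate 2 (limma adjusted p = 0.0875). No gene of the core passed in footprints.

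Of 11 tested receptors of growth factors and cytokines, RNA of 4 (36.4%) rose, 3 (27.3%) fell and 4 did not pass (median log2 difference -0.04), shares near those over all tested genes. Among them, Pdgfrb, Flt3 and Csf1r were also counted above as markers of stroma, progenitors and macrophages. Pdgfrb, a receptor of mesenchymal cells, had 19.0 and 21.0 RPKM in KO, against 0.974 and 1.10 RPKM in WT, and Flt3, a receptor of progenitors, had 19.5 and 17.7 RPKM in KO, against 2.54 and 2.99 RPKM in WT. Csf1r, the receptor of macrophage colony-stimulating factor, had 7.63 and 8.65 RPKM in KO, against 41.4 and 42.7 RPKM in WT. Of 11 receptors tested in footprints, 1 passed, Pdgfrb, with 84 and 92 reads in KO against 21 and 17 in WT (limma adjusted p = 0.0342). Csf1r footprints, 30 and 41 reads in KO against 655 and 504 in WT, did not pass (limma adjusted p = 0.0645).

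**Figure D4:**
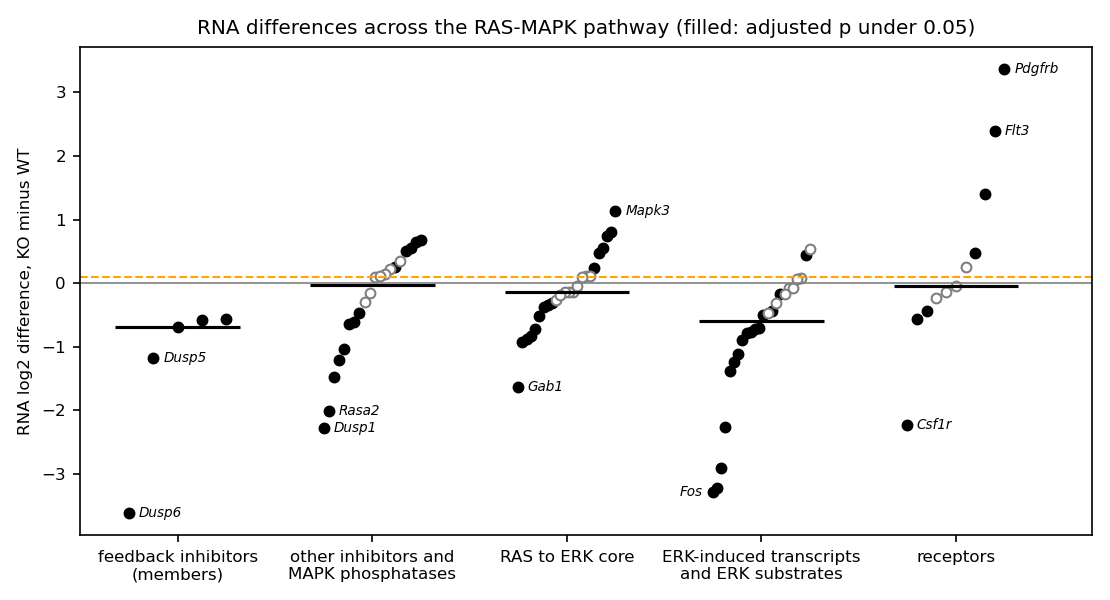
Log2 difference in RNA, KO minus WT, of tested genes in 5 groups of the pathway. Each point is a gene, filled where it passed an adjusted p of 0.05 in limma, the short lines are group medians and the dashed line is the median of all tested genes. The 5 tested feedback inhibitors all lie below 0, while the other inhibitors, the core and the receptors spread to both sides.

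The genes whose RNA pattern over the 4 libraries was most like that of Dusp6, by Euclidean distance in log2(RPKM + 1) centred on each gene's mean among the 12194 tested genes, were Rassf10 (distance 0.134), Nr4a1 (0.251) and Fos (0.335). Rassf10 had 0.854 and 0.420 RPKM in KO, against 17.8 and 17.9 RPKM in WT, and reached the minimum only through the WT libraries. Nr4a1 had 2.29 and 2.34 RPKM in KO, against 42.9 and 44.6 RPKM in WT.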

How the data were processed

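Footprints and input RNA were measured in 2 KO and 2 WT libraries. Per the labels' protocols, micrococcal nuclease (10 µg/ml, 30 min, 37 °C) was applied to cell lysates, fragments of 25 to 40 nt were kept, and undigested lysate served as input. Tools named without a role are featureCounts, HISAT2 2.1.0, CASAVA and DESeq2, per the submitters' processing notes, which give the human build hg38 although samples and symbols are mouse. The values the authors deposited behaved as RPKM plus 1, a unit read from the values, and the deposited TE as the ratio of the footprint to the RNA value. The deposited p-value is the authors' own.

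RNA RPKM was computed as footprint value over TE, minus 1. The RPKM steps gave whole footprint reads, within 0.002 reads, for each of the 10536 genes that had footprints in 2 or more libraries, and the members' input reads within 0.005. The rows used held 94.0% to 97.5% of assigned reads. Replicates differed by more than counting noise, with a chi-square per gene of 14.8 in KO and 5.20 in WT. limma 3.58.1 (R 4.3.3) was fitted, with its trend option, on log2(RPKM + 1) and on log2 TE, over all genes past a minimum (6387 for footprints and TE, at a CPM of at least 20 in 2 libraries, and 12194 for RNA, at 1 RPKM in 2), two-sided, with Benjamini-Hochberg adjustment and a threshold of 0.05. Exact 95% intervals on pooled reads and limits of 3 reads cover counting error only. Python 3.11.15 was used for the rest. The fits were also run on simulated data with the same spread in both groups. The footprint libraries here differ in spread between groups, so that run does not show how the fits behave on them.

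Members and lists were chosen with earlier results of these data known. Besides the members, text names Rreb1, the 3 genes with the largest RNA difference per pathway list, Fos, Egr1, Etv5, Dusp1 and Nras, and the 3 genes most like Dusp6. Some genes of the naming rule are not reported here. Cd34, Kit, Hoxa9, Hoxa10, Mpo, Nkg7, Lck, Trbc2, Il2rb, Rasa1, Dusp9, Rras, Myc and the 6 ERK substrates and effectors were chosen after their values were seen. Pseudocounts, minimums, trend, centring, voom, a replicate block and leaving out each library were tried as alternatives. Same-numbered libraries did not deviate together (r = 0.0224 in footprints and -0.14 in RNA).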

Additional observations from a re-analysis of the deposited data

How the results depend on the processing

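Limits came mainly from 2 libraries per group and shallow footprints. Of the inhibitors, Dusp6 and Dusp5 kept their RNA calls under every alternative run for them, with log2 differences of Dusp6 from -3.87 to -2.50 and of Dusp5 from -1.56 to -0.40 (the smallest sizes with a pseudocount of 5). Fits without 1 library leave 1 group with a single library, assumed to vary like the other group. In them 3 to 4 of the 5 inhibitors passed in RNA. Among the genes of the footprint filter 2 of 3 passed, since Dusp5, Spred1 and Spred2 are not among those tested, and with a fold of at least 1.5 the count was 3 (5 with a pseudocount of 0.5). In footprints 0 to 1 of 3 inhibitors passed without 1 library, the 1 being Dusp6 without KO replicate 1. In TE 1 inhibitor passed when either KO library was left out, Dusp6 in both cases. The log2 difference of Spry2 in footprints turned to -0.52 without KO replicate 2 and -0.33 without WT replicate 1 (range without 1 library -0.52 to 0.81), and that of Dusp6 in TE to -0.41 with a pseudocount of 5 and -2.03 without KO replicate 1 (range -2.03 to 2.47). Over all genes, 66 passed in footprints, against 108 with a pseudocount of 5, 120 at a CPM of at least 50, 44 with voom, 0 with no minimum (1674 at an unadjusted p under 0.05) and 0 to 1085 without 1 library, which were 0 without WT replicate 1 or 2, 327 without KO replicate 1 and 1085 without KO replicate 2. In RNA 6497 passed, against 3880 among the genes of the footprint filter, 3505 with a fold of at least 1.5 and 3624 to 5800 without 1 library. Centring each library on its median split the RNA calls into 3139 higher and 3172 lower in KO, against 3929 higher and 2568 lower without it, and 5 inhibitors still fell. In TE 0 passed (830 at an unadjusted p under 0.05), against 1 with a pseudocount of 5 and 0 to 698 without 1 library. The replicate block gave 32 calls in footprints, 5607 in RNA and 0 in TE, and the counts of inhibitors stayed at 0, 5 and 0. A crossed pairing, added after the data were seen, gave 7036 calls in RNA and 5 inhibitors. The causes were not tested beyond what is stated.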
